A study of Homo sapiens with 6 samples.

Results

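Mitochondrial ribosomal proteins are encoded by nuclear genes, made in the cytosol and imported into mitochondria, where they join RNAs transcribed from mitochondrial DNA to form the ribosome of the organelle. That ribosome has a large subunit, which joins amino acids, and a small subunit, which reads the messenger RNA. Its products are subunits of the respiratory chain and of ATP synthase, so its supply is tied to oxidative metabolism. The genes described here are those whose symbol in the deposited processed matrix starts with MRPL (large subunit) or MRPS (small subunit) followed by a digit. The rule found 78 of 16330 genes, 49 MRPL and 29 MRPS. It uses symbols and no measured value, but it was chosen with earlier results of these data known.

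The cells were HN12, an established line of human head and neck squamous cell carcinoma, grown in DMEM with serum. The Control group (3 libraries) received DMSO, the solvent, and the CPI-613 group (3 libraries) received CPI-613, both for 24 h. CPI-613 is a lipoate analogue known as an inhibitor of pyruvate dehydrogenase and 2-oxoglutarate dehydrogenase, the mitochondrial enzyme complexes that carry lipoic acid. Its dose is not given in the sources used here, and nothing in the labels says whether the 3 libraries of a group came from separate cultures, so the p-values rest on a spread between libraries that could be technical. Libraries held 11531942 to 15486513 estimated counts, of which the 78 genes took 0.342% to 0.474%. All 9 listed markers of squamous epithelium were counted, with a summed level of 8752 to 11283 CPM in Control and 7629 to 15443 CPM in CPI-613. They did not move together: 3 of 9 log2 fold changes were above 0, and they ran from -1.21 to 1.24. KRT5 had 26843, 26025 and 33621 counts in Control and 6441, 11370 and 20041 in CPI-613. ITGB4 had 29002, 35793 and 28679 counts in Control and 59759, 76514 and 89266 in CPI-613. PTPRC, the pan-leukocyte gene, had 0 to 2 counts in a library, and 3 endothelial genes were counted at 0 to 14. Fibroblast markers summed to 31.0 to 41.6 CPM over the 6 libraries, most of it from COL1A1 (420 to 517 counts in a library). PDGFRB had 15 to 52 counts and COL3A1 0 to 3, and COL1A2, DCN and LUM were not among the counted genes. The endothelial sums, at the limit of detection, were 2.51, 1.47 and 1.22 CPM in Control and 0.214, 0.538 and 0.542 CPM in CPI-613. The monocyte marker CD14 had 26.1, 17.2 and 29.8 CPM in Control and 1.50, 1.31 and 4.49 CPM in CPI-613 (log2 fold change -3.32, SE 0.54, edgeR adjusted p = 0.025), and the part of these markers in the results was not tested. In bulk RNA, fewer cells of a type and less RNA per cell cannot be told apart. The CD14 call was lost without Control replicate 1, 2 or 3 or CPI-613 replicate 2 (edgeR adjusted p = 0.125, 0.0579, 0.119 and 0.133), with log2 fold changes of -3.27, -3.55, -3.15 and -3.02, near the value over all libraries.

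No mitochondrial ribosomal protein gene changed with CPI-613 by the test across all genes. At an adjusted p under 0.05 (edgeR's quasi-likelihood test with Benjamini-Hochberg adjustment over 12671 genes), 0 of 78 genes were called, against 3.18% of all genes tested (1.94% higher and 1.24% lower). Without the adjustment the count at p under 0.05 was also 0 of 78, against 14.4% of all genes. DESeq2 and limma-voom also called 0 of 78, where they called 7.05% and 3.27% of all genes, and 0 of 78 had an unadjusted p under 0.05 with either tool (14.8% and 14.3% of all genes). The lowest adjusted p among the 78 genes was 0.428, for MRPL42. No estimate reached a 2-fold change, against 8.36% of all genes.

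The absence of calls is not a proof of equal levels, and the intervals say how far each gene could have moved. For 55 of 78 genes (70.5%) the 95% interval of the fold change lay within 2-fold in both directions, against 45.1% of all genes tested. For the others a 2-fold change remained inside the interval, as for MRPL41, MRPL12 and MRPS12. Estimates ran from a log2 fold change of -0.61 (MRPL42) to 0.57 (MRPL41), with a median of 0.09 beside 0.02 for all genes.

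**Figure D1:**
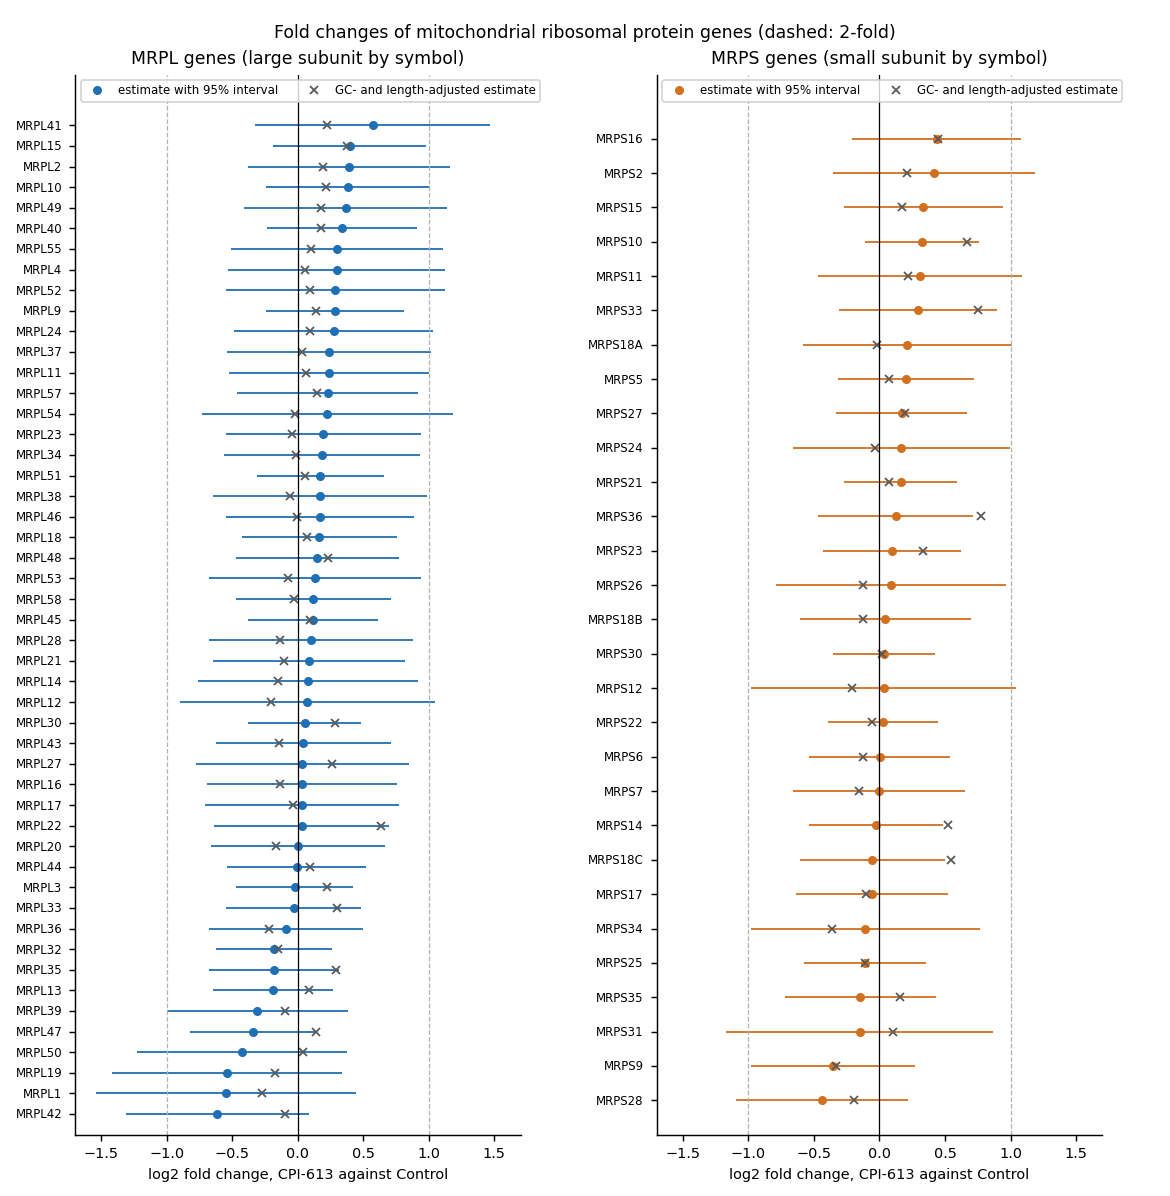
Log2 fold change (horizontal axis) of each of the 49 MRPL and 29 MRPS genes, CPI-613 against Control, as a point with its 95% interval; crosses are estimates adjusted for GC content and transcript length, and dashed lines mark 2-fold. All 78 intervals include 0, and the points run from -0.61 to 0.57.

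The values of these genes in single libraries moved with base composition, as given below. Coding sequences of genes at both ends of the range over whole transcripts are therefore shown first. GC content is the share of G and C letters in the longest protein-coding GENCODE 29 transcript, and it ran from 35.0% to 71.9% with a median of 48.9%, beside 49.4% for all counted genes. The transcripts were shorter than usual, with a median of 1516 bases against 3260. Below are the first 120 coding bases of the genes with the highest and the lowest GC content in each subunit, 5′ to 3′, with every G and C in capitals.
MRPL41: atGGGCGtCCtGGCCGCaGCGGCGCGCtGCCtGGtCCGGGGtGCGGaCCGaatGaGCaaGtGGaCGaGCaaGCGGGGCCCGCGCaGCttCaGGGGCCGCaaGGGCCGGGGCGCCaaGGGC
MRPL50: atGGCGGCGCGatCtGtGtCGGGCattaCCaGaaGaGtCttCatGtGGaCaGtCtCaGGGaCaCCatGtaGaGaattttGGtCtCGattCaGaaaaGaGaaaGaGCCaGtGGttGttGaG
MRPS34: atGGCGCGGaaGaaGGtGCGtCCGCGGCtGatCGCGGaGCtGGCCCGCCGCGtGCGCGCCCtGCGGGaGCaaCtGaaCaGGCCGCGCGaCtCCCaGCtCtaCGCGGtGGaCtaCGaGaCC
MRPS36: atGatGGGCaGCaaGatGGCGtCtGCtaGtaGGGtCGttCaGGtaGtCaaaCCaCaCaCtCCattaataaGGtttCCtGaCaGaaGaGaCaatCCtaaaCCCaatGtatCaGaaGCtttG
These stretches held 75.8% G and C in MRPL41, 49.2% in MRPL50, 71.7% in MRPS34 and 45.0% in MRPS36. The order by coding sequence was another, with MRPS26 highest (68.1%) and MRPL1 lowest (38.4%). The genes lie at chr9:137551879-137552555 (MRPL41), chr9:101387633-101398618 (MRPL50), chr16:1771895-1773134 (MRPS34) and chr5:69217760-69230158 (MRPS36) in RefSeq on GRCh38.p14.

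Levels are compared between genes in FPKM, which divide a count by transcript length. In the small subunit MRPS24, the most abundant of the 78, stood at 190.0, 267 and 189 FPKM in Control and at 141, 192 and 278 FPKM in CPI-613. MRPS7, the counterpart of a bacterial protein that organises the head of the subunit, had a Control mean of 144 ± 26.5 FPKM (SD, n = 3). MRPS34 followed at 133 ± 31.1 FPKM and MRPS6 at 96.9 ± 5.88 FPKM. In the large subunit the most abundant were MRPL41 at 135 ± 17.4, MRPL51 at 132 ± 7.82, MRPL23 at 123 ± 6.91 and MRPL21 at 122 ± 20.8 FPKM. MRPL23 is the counterpart of a protein at the exit of the peptide tunnel. These 4 means differed by less than the largest SD among them.

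At the other end stood MRPL42 at 2.63 ± 0.325 FPKM, MRPL50 at 5.54 ± 0.271 FPKM and MRPL19 at 6.02 ± 0.490 FPKM. The lowest small-subunit genes were MRPS33 at 3.48 ± 0.404, MRPS23 at 9.98 ± 1.07 and MRPS11 at 11.2 ± 1.25 FPKM. The order in counts was another. Control means ran from 9.68 ± 1.10 CPM (MRPL54) to 131 ± 29.1 CPM (MRPS7; SD, n = 3). MRPL42 had 37.5 ± 3.30 CPM in Control, close to the 43.5 ± 7.11 CPM of MRPL41. The length implied by the deposited FPKM was 15333 bases for MRPL42, 7585 for MRPL19 and 4005 for MRPS33, against 344 for MRPL41 and 429 for MRPS24. The position of these genes in the FPKM order therefore moves with the transcript length the authors divided by.

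**Figure D2:**
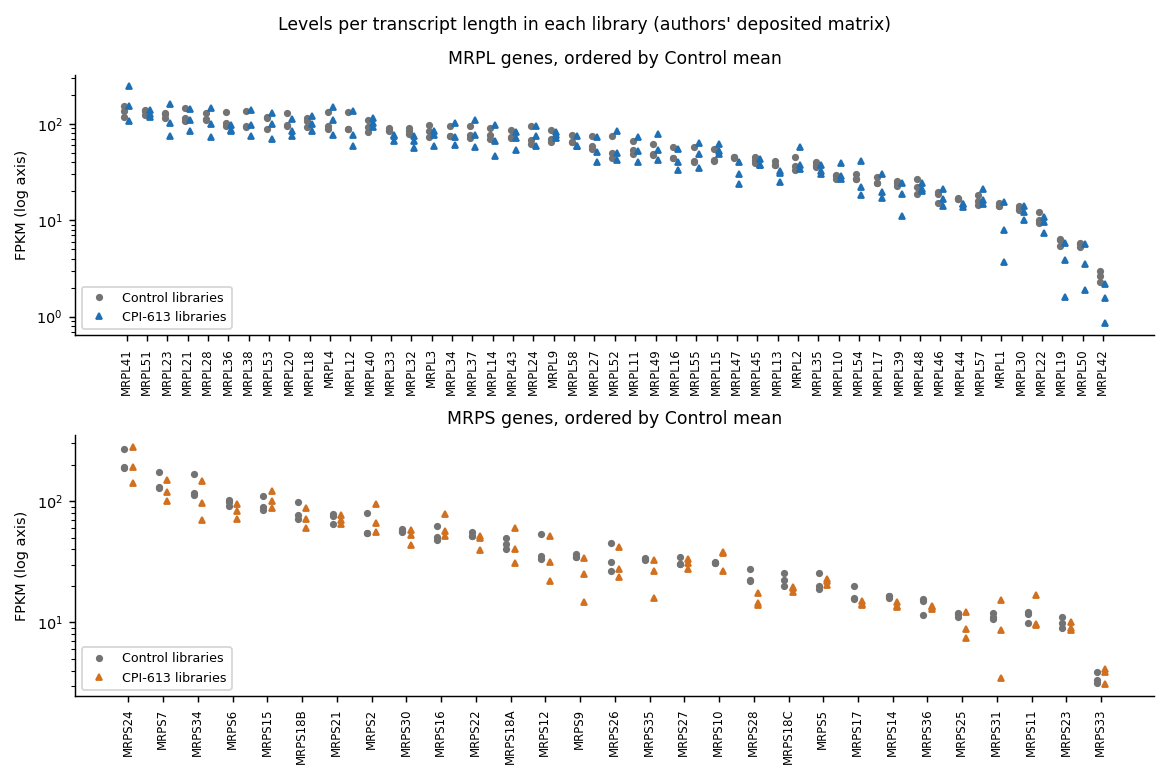
FPKM (vertical axis, log scale) of each MRPL gene (top) and MRPS gene (bottom) in the 3 Control libraries (grey circles) and 3 CPI-613 libraries (coloured triangles), ordered by the Control mean. MRPS24 is highest with a Control mean of 215 FPKM and MRPL42 lowest with 2.63 FPKM, and the triangles of many genes are spread more widely than the circles.

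Among large-subunit genes the highest estimates were those of MRPL41, MRPL15, MRPL2 and MRPL10. MRPL41, a protein with no bacterial counterpart, stood at 41.4, 51.4 and 37.7 CPM in Control and at 35.2, 57.6 and 101 CPM in CPI-613. The CPI-613 libraries hold both the lowest and the highest value, with replicate 3 far above the rest. Its log2 fold change was 0.57 (SE 0.38, 95% interval -0.33 to 1.47, edgeR adjusted p = 0.619).

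MRPL15 had 49.1, 70.3 and 51.6 CPM in Control and 59.8, 71.5 and 93.7 CPM in CPI-613. The groups overlapped, and the log2 fold change was 0.40 (SE 0.25). MRPL2, the counterpart of a bacterial protein beside the catalytic centre, had 32.1, 43.3 and 30.1 CPM in Control and 31.7, 39.5 and 67.3 CPM in CPI-613. Here replicate 3 alone lay above the Control range, and the log2 fold change was 0.39 (SE 0.33). MRPL10, which anchors the factor-binding stalk, had 36.8, 42.9 and 39.9 CPM in Control and 38.5, 46.8 and 70.9 CPM in CPI-613, a log2 fold change of 0.38 (SE 0.27).

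The lowest large-subunit estimates were those of MRPL42, MRPL1, MRPL19 and MRPL50, all with a GC content under 40%. MRPL42, a protein without a bacterial counterpart, had 40.8, 34.2 and 37.4 CPM in Control and 32.1, 25.8 and 15.6 CPM in CPI-613. All CPI-613 values lay below all Control values, with replicate 3 lowest, and the log2 fold change was -0.61 (SE 0.30, 95% interval -1.31 to 0.08, edgeR adjusted p = 0.428). MRPL1, which forms the stalk where spent transfer RNA leaves, had 12.9, 12.9 and 12.1 CPM in Control and 13.8, 7.92 and 4.18 CPM in CPI-613. Its groups overlapped, since CPI-613 replicate 1 was the highest of the 6, and the log2 fold change was -0.55 (SE 0.42).

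MRPL19 had 43.7, 40.2 and 43.9 CPM in Control and 41.8, 31.5 and 14.5 CPM in CPI-613, a log2 fold change of -0.54 (SE 0.37). MRPL50 had 15.8, 15.8 and 16.5 CPM in Control and 17.0, 11.8 and 7.05 CPM in CPI-613, a log2 fold change of -0.43 (SE 0.34). In both, CPI-613 replicate 1 lay within or above the Control values and replicate 3 was lowest. Adjusted for GC content and length, the estimates of MRPL42, MRPL1, MRPL19 and MRPL50 were -0.10 (SE 0.28), -0.27 (SE 0.20), -0.18 (SE 0.17) and 0.04 (SE 0.23).

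In the small subunit the highest estimates were those of MRPS16, MRPS2, MRPS15 and MRPS10. MRPS16, the counterpart of a bacterial assembly protein and a known disease gene of mitochondrial translation, had 106, 142 and 104 CPM in Control. In CPI-613 it had 115, 143 and 218 CPM, with a log2 fold change of 0.44 (SE 0.27). MRPS2 had 61.8, 96.4 and 62.9 CPM in Control and 66.0, 87.3 and 141 CPM in CPI-613, a log2 fold change of 0.41 (SE 0.33). MRPS15 had a log2 fold change of 0.33 (SE 0.26), from 63.6 ± 11.8 to 80.1 ± 21.9 CPM (SD, n = 3). In all 3 genes CPI-613 replicate 3 was the highest library and Control replicate 2 overlapped the CPI-613 values.

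MRPS10 differed in pattern. It had 52.4, 57.1 and 53.2 CPM in Control and 67.3, 76.6 and 59.9 CPM in CPI-613, and it was the 1 gene of 78 whose CPI-613 values all lay above its Control values, against 11.8% of all genes. Its CPI-613 replicate 3 was the lowest of that group. The log2 fold change was 0.32 (SE 0.18, 95% interval -0.11 to 0.76, edgeR adjusted p = 0.532). Adjusted for GC content and length it was 0.67 (SE 0.24, edgeR adjusted p = 0.128). The 26 genes of lowest GC content, with MRPS10 among them, had an adjusted median of 0.19.

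The lowest small-subunit estimates were those of MRPS28, MRPS9, MRPS31 and MRPS35. MRPS28 had 12.1, 16.3 and 12.3 CPM in Control and 8.06, 9.38 and 12.6 CPM in CPI-613, so that replicate 3 alone overlapped the Control values, and the log2 fold change was -0.44 (SE 0.28). MRPS9 had 36.9, 39.6 and 39.9 CPM in Control and 38.4, 31.9 and 20.8 CPM in CPI-613, a log2 fold change of -0.35 (SE 0.27). MRPS31 and MRPS35, both without bacterial counterparts, had log2 fold changes of -0.15 (SE 0.43) and -0.15 (SE 0.25). MRPS31 ran from 5.27 to 18.5 CPM within the CPI-613 group alone, while its Control values lay between 12.4 and 14.0 CPM.

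Besides MRPL42, the CPI-613 values lay wholly below the Control values in MRPL13, MRPL32 and MRPL47, 4 of 78 against 9.17% of all genes. MRPL32, which is matured in the organelle by the m-AAA protease before it joins the ribosome, had 47.0, 55.2 and 45.5 CPM in Control and 44.4, 44.6 and 41.5 CPM in CPI-613. Its log2 fold change was -0.18 (SE 0.19). MRPL47 had 43.7, 48.3 and 45.7 CPM in Control and 42.4, 35.3 and 31.1 CPM in CPI-613, a log2 fold change of -0.34 (SE 0.21), and MRPL13 had a log2 fold change of -0.19 (SE 0.19).

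Several genes were chosen for what their products do. MRPS36, despite its symbol, encodes KGD4, which is not found in the structures of the mitochondrial ribosome and joins the E3 component to the 2-oxoglutarate dehydrogenase complex, a target of CPI-613. It had 14.6, 16.3 and 11.6 CPM in Control and 13.2, 15.8 and 17.3 CPM in CPI-613. The ranges overlapped, and the log2 fold change was 0.12 (SE 0.25, 95% interval -0.47 to 0.71, edgeR adjusted p = 0.866). With the lowest GC content of the small-subunit symbols (35.0%), its adjusted estimate was 0.78 (SE 0.46, edgeR adjusted p = 0.344). The median adjusted estimate of other short genes of low GC content was 0.18, as given below.

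MRPL12, the stalk protein that recruits translation factors and has also been described as a partner of the mitochondrial RNA polymerase, had 60.8, 98.2 and 62.7 CPM in Control and 43.0, 64.0 and 127 CPM in CPI-613. The CPI-613 group again held both extremes, and the log2 fold change was 0.07 (SE 0.41). MRPL11, at the base of that stalk, had a log2 fold change of 0.24 (SE 0.32). MRPL45, which lies at the tunnel exit facing the inner membrane, had 51.3 ± 4.63 CPM in Control and 55.5 ± 10.2 CPM in CPI-613 (SD, n = 3), a log2 fold change of 0.11 (SE 0.21). MRPL58, a peptidyl-tRNA hydrolase that has become a ribosomal protein, had a log2 fold change of 0.12 (SE 0.25).

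MRPS12, of the decoding centre, had 22.3, 38.9 and 24.1 CPM in Control and 15.6, 25.4 and 46.1 CPM in CPI-613. Its log2 fold change of 0.03 carried one of the widest intervals, from -0.98 to 1.04. MRPS18A, MRPS18B and MRPS18C are paralogues of a single bacterial protein, and the product of MRPS18A sits in the large subunit. Their log2 fold changes were 0.21 (SE 0.34), 0.04 (SE 0.28) and -0.06 (SE 0.23), in the order of their GC contents of 57.3%, 52.7% and 38.0%. MRPS30, also found in the large subunit, was among the steadiest genes, with 70.7, 81.5 and 73.6 CPM in Control and 78.6, 79.0 and 73.2 CPM in CPI-613. Its log2 fold change was 0.03 with a 95% interval of -0.36 to 0.42.

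The spread within CPI-613 exceeded the difference between groups. The median range over the 3 libraries of a group was 0.43 on the log2 scale in Control and 0.88 in CPI-613, while the median absolute difference between group means was 0.15. The range was wider in CPI-613 for 66 of 78 genes, and no gene had a difference larger than both of its ranges. CPI-613 replicate 3 was the highest of the 6 libraries for 55 genes and the lowest for 14, and CPI-613 replicate 1 was the lowest for 45. Within Control, replicate 2 was the highest library for 70 genes.

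Summed over the 78 genes, the level was 3578, 4600 and 3528 CPM in Control and 3286, 4036 and 5413 CPM in CPI-613. The group means of 3902 ± 605 and 4245 ± 1079 CPM (SD, n = 3) differed by less than either SD. In FPKM the sums were 4536 ± 592 in Control and 4250 ± 809 in CPI-613, with the CPI-613 mean on the other side, and again the difference was smaller than either SD.

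The balance of the subunits was steady in Control and less so in CPI-613. The summed CPM of MRPL genes was 1.54, 1.54 and 1.53 times that of MRPS genes in Control and 1.44, 1.53 and 1.62 times in CPI-613. The CPI-613 libraries lay on both sides of Control, and the means were 1.54 ± 0.00744 and 1.53 ± 0.0886 (SD, n = 3). The median log2 fold change was 0.11 over the 49 MRPL genes and 0.04 over the 29 MRPS genes, with 0 called in either, and 0.06 and 0.07 after the adjustment for GC content and length. Assigned by structure, with MRPS30 and MRPS18A in the large subunit and MRPS36 in neither, the medians were 0.11 (51 genes) and 0.04 (26 genes). The 48 genes with bacterial counterparts had a median of 0.06 and the 29 specific to mitochondria 0.12, again with 0 called in each.

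**Figure D3:**
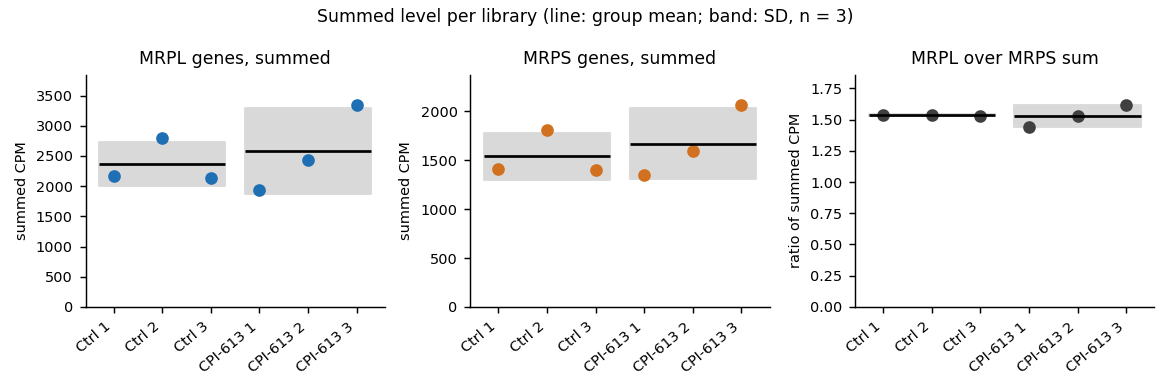
Summed CPM of the 49 MRPL genes (left) and 29 MRPS genes (middle) and their ratio (right) in each library, with the group mean as a line and the SD (n = 3) as a band. CPI-613 replicate 1 is lowest and replicate 3 highest in all 3 panels, and the ratio runs from 1.44 to 1.62.

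The libraries differed by the GC content of the genes. In CPI-613 replicate 3 the 26 genes of lowest GC content (35.0% to 45.6%) had a median deviation from the Control mean of -0.13 on the log2 scale. The 26 genes of middle GC content had a median of 0.51, and the 26 of highest GC content (53.0% to 71.9%) had 0.75. CPI-613 replicate 1 ran the other way, with -0.06, -0.19 and -0.45, and CPI-613 replicate 2 gave -0.06, 0.09 and 0.07. Within Control, replicate 2 gave 0.11, 0.21 and 0.32.

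Other genes showed the same ordering. Over all other genes tested, the medians in CPI-613 replicate 3 were -1.09, 0.18 and 0.57 in the low, middle and high GC class. Among other genes no longer than the median member (275, 298 and 712 genes) they were -0.22, 0.45 and 0.72, near those of the mitochondrial ribosomal protein genes. Across the 78 genes, Pearson's r between the deviation in CPI-613 replicate 3 and GC content was 0.68, given as a description because the points share 1 library. It was 0.69 with the GC content of the coding sequence. For the log2 fold change, r with GC content was 0.54 over the 78 genes, 0.68 over MRPL and 0.24 over MRPS genes, and 0.26 over 12605 genes tested. The adjustment for GC content and length changed the sign over the 78 genes, to -0.41, so the relation was turned rather than removed. In the low GC class the adjusted median log2 fold change was 0.19 over the 26 mitochondrial ribosomal protein genes. It was 0.18 over the 275 other short genes and 0.03 over all 5071 other genes of that class. The part of GC content in any single estimate was not tested beyond this adjustment.

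**Figure D4:**
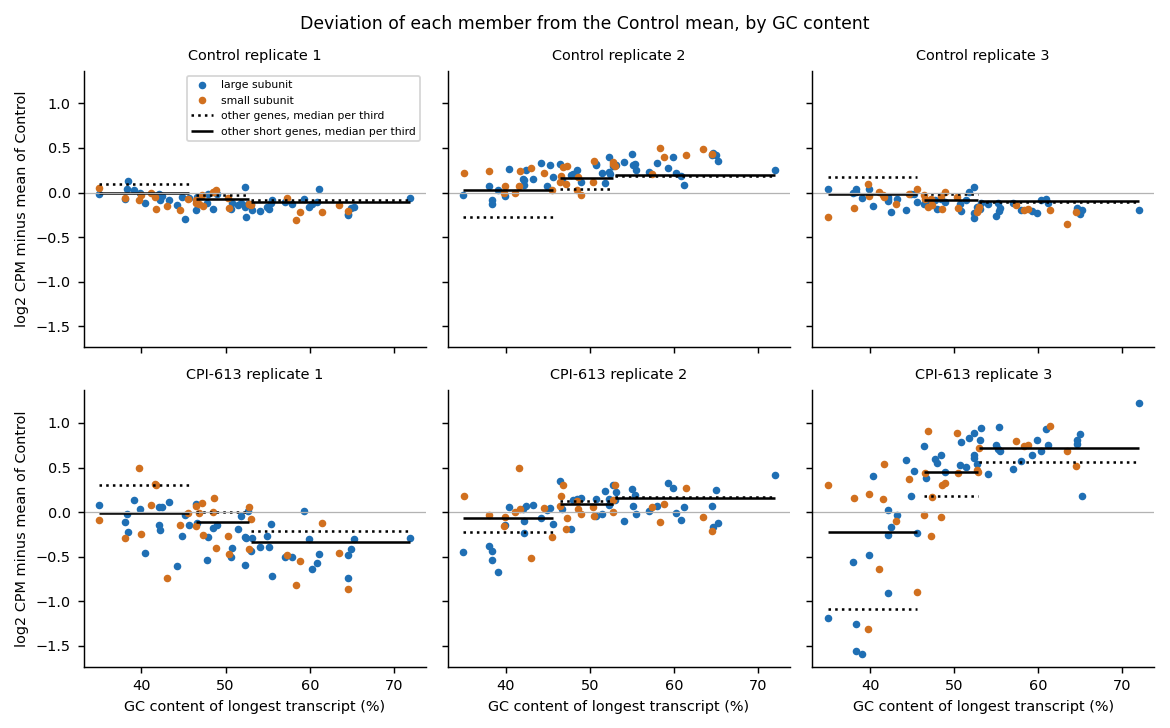
Deviation of each gene from its Control mean (vertical axis, log2 CPM) against GC content of the longest transcript (horizontal axis, %) in each library, for MRPL (blue) and MRPS (orange) genes, with medians per GC class (low, middle and high) of all other genes (dotted) and of other short genes (solid). In CPI-613 replicate 3 the class medians of the plotted genes are -0.13, 0.51 and 0.75, and in replicate 1 they are -0.06, -0.19 and -0.45.

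After the adjustment, 0 of 78 genes were called, where 11.7% of all genes were. At an unadjusted p under 0.05 there were 2 of 78, against 25.6% of all genes: MRPS10, above, and MRPS34. MRPS34, needed for the stability of the small subunit, had 80.6, 125 and 79.6 CPM in Control and 51.1, 80.0 and 133 CPM in CPI-613. Its groups overlapped, and its log2 fold change was -0.11 (SE 0.37) without and -0.36 (SE 0.13, edgeR adjusted p = 0.123) with the adjustment.

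Genes whose products work with the mitochondrial ribosome were read from the same fit, in which 3.18% of all genes tested were called. With that share, 0 calls in a list this short is no result about the list. The 5 ribosomal proteins with other symbols (DAP3, PTCD3, CHCHD1, AURKAIP1 and GADD45GIP1) had 0 calls and a median log2 fold change of 0.28. DAP3, a GTP-binding protein of the small subunit, had 138, 165 and 133 CPM in Control and 159, 192 and 199 CPM in CPI-613, overlapping groups with a log2 fold change of 0.34 (SE 0.18). Of 34 assembly and ribosomal RNA factors tested, 0 were called, with a median of 0.08. Among them NSUN4, the methyltransferase that acts in subunit joining, had 37.5 ± 4.79 CPM in Control and 49.7 ± 5.68 CPM in CPI-613 (SD, n = 3), a log2 fold change of 0.40 (SE 0.21).

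Of 20 genes tested from a list of translation factors that also holds RNA-processing genes such as TRMT10C, 0 were called. Their median was -0.09. TUFM, the elongation factor that brings transfer RNA, had a log2 fold change of 0.36 (SE 0.32). TRMT10C, a subunit of the mitochondrial RNase P, had 20.2, 17.3 and 22.8 CPM in Control and 16.3, 6.30 and 3.18 CPM in CPI-613. Its CPI-613 values lay below all Control values, with a log2 fold change of -1.22 (SE 0.56, edgeR adjusted p = 0.390) and, adjusted for GC content and length, -1.01 (SE 0.25, edgeR adjusted p = 0.0421). Without the adjustment it passed when CPI-613 replicate 1 was left out (log2 fold change -2.08, edgeR adjusted p = 0.0216). The 18 genes for the mitochondrial RNA polymerase and RNA handling also had 0 calls, with a median of -0.24 (-0.08 adjusted). TFAM, which packages and transcribes mitochondrial DNA, had 56.6, 54.9 and 68.5 CPM in Control and 67.8, 32.8 and 14.4 CPM in CPI-613, a log2 fold change of -0.65 (SE 0.50).

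Of 13 regulators of nuclear genes for mitochondria that were tested, 1 was called, and it was higher. MYC, a transcription factor that drives genes of ribosome production, had 112, 162 and 118 CPM in Control and 277, 301 and 345 CPM in CPI-613. All CPI-613 values lay above all Control values, with a log2 fold change of 1.23 (SE 0.21, edgeR adjusted p = 0.0275). The call was lost without Control replicate 1 or 3 or CPI-613 replicate 2 (edgeR adjusted p = 0.193, 0.196 and 0.151), with log2 fold changes of 1.14, 1.16 and 1.26. PPARGC1B, a coactivator of mitochondrial genes, had 23.0, 24.1 and 18.9 CPM in Control and 11.6, 12.5 and 12.9 CPM in CPI-613. Its groups did not overlap, but it was not called (log2 fold change -0.84, SE 0.23, edgeR adjusted p = 0.122). It passed with the GC and length adjustment (edgeR adjusted p = 0.0188) and with DESeq2 (adjusted p = 0.00628). NRF1, a regulator of respiratory genes, had a log2 fold change of 0.05 (SE 0.20).

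The 85 cytosolic ribosomal protein genes tested, the counterparts outside mitochondria, also had 0 calls, against 3.18% of all genes tested. Their median log2 fold change was 0.23 with 73 of 85 estimates above 0, beside 55 of 78 for the mitochondrial ribosomal protein genes and 51.8% of all genes. The signs of the mitochondrial set depend on the scaling. With library size as the only scaling, which moves the median of all genes to -0.17, 21 of 78 estimates were above 0. The signs of the cytosolic set were not counted under other scalings and could move as well.

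**Figure D5:**
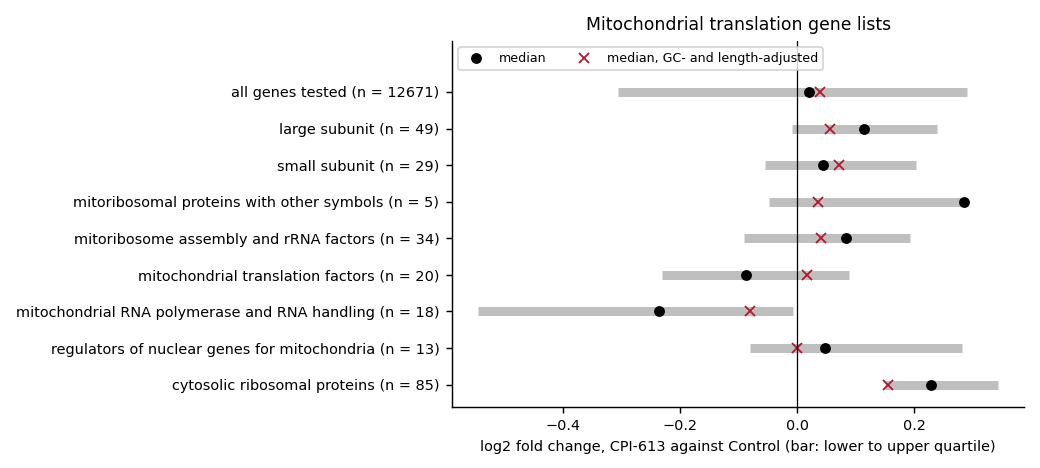
Median log2 fold change (black point), range from the lower to the upper quartile (grey bar) and median after adjustment for GC content and length (red cross) of the 2 subunits, related gene lists and all 12671 genes tested. The medians run from -0.24 for the RNA polymerase and RNA handling list to 0.28 for ribosomal proteins with other symbols.

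Short sequences in the promoters, which the choice of genes did not use, were counted next. Windows from 250 bases before to 50 after the transcription start were taken from RefSeq (GRCh38.p14) and found for 70 of the 78 genes. They were searched on both strands for exact letters. AAGATGGC, the core of the YY1 motif, was in 20 of 70 windows (28.6%), against 4.53% of 13086 windows of counted genes. Within the 50 bases after the start it was in 15 of 70 (21.4%), against 2.91%. In 11 of these 15 genes the ATG inside the letters opens the longest annotated coding sequence. The following 30-base windows, from 6 of the genes described above that hold it, chosen after their values were seen, run 5′ to 3′ on the gene's strand with the motif in capitals.
MRPL42 (chr12:93467511-93467540, plus strand): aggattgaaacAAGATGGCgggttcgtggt
MRPL50 (chr9:101398577-101398606, minus strand): ggatctcatcgAAGATGGCggcgcgatctg
MRPS10 (chr6:42217834-42217863, minus strand): tcgggaccggcAAGATGGCggcgcggacag
MRPS24 (chr7:43869480-43869509, minus strand): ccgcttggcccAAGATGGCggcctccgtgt
MRPS7 (chr17:75261887-75261916, plus strand): cgtggccagccAAGATGGCtgcccccgcag
MRPS30 (chr5:44808949-44808978, plus strand): aatcgcgggcaAAGATGGCggcggccaggt
The motif starts 9, 24, 10, 20, 20 and 14 bases into the transcript in these genes, so the windows of MRPL42 and MRPS10 reach across the transcription start and the other 4 lie wholly inside the transcript. A match is a description of letters and not a bound site.

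The median log2 fold change was 0.04 over the 20 genes with the motif and 0.10 over the 50 without, and no gene of either set was called. YY1 itself had 163, 153 and 167 CPM in Control and 129, 139 and 103 CPM in CPI-613. Its CPI-613 values lay below all Control values, but the test was not passed (log2 fold change -0.38, SE 0.18, edgeR adjusted p = 0.412). Other letters were nearer to the background. CCGGAAGT, the ETS and GABP core, was in 15.7% of the 70 windows against 7.34%, and GCGCATGC, the NRF1 core, in 8.57% against 4.76%. The E-box CACGTG, which MYC and other factors bind, was in 10.0% against 9.51%. TGACGTCA was in 0 of 70 against 2.93%, TGATGCAA in 0 of 70 against 0.581%, CCAAT in 28.6% against 36.5% and TATAAA in 4.29% against 7.24%.

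Of the 70 genes, 22 (31.4%) had another gene's start within 1000 bases upstream on the other strand, against 20.9% of counted genes. MRPL46 and MRPS11 are such a pair, 320 bases apart, so that a large- and a small-subunit gene face each other. MRPS12 faces SARS2, the mitochondrial seryl-tRNA synthetase, at 181 bases, and MRPL49 faces FAU, a cytosolic ribosomal protein gene, at 49 bases. In 28 of the 78 genes an exon overlaps an exon of a gene on the other strand, and 42 have pseudogenes by symbol (106 in all). Whether reads were counted by strand is not given in the sources used here, so counts of such genes could be shared with their partners or copies.

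The 78 genes were counted as 205 transcript entries, and 32 genes had a single entry. Not every entry need be a different transcript. The main entry of MRPL45 is numbered as a further copy of a RefSeq transcript. MRPS18B had 8 entries, with the main one at 13.9% ± 0.108 in Control and 14.0% ± 0.0405 in CPI-613. The numbers of transcripts and of genes with at least 2 may therefore be too high. Of 43 genes with at least 2 transcripts of 10 counts or more, the share of the main transcript did not overlap between groups in 4 (9.3%), below the 14.5% of 8447 such genes overall. The 4 are given as values only. In MRPS35 it was 86.7% ± 0.956 in Control and 91.5% ± 1.48 in CPI-613 (SD, n = 3). It was lower with CPI-613 in MRPL15 (87.7% ± 0.877 and 82.7% ± 1.50), MRPL47 (96.9% ± 0.300 and 93.9% ± 0.897) and MRPL57 (60.5% ± 2.37 and 55.0% ± 1.29). These shares were not tested, and they come from reads that the authors' counter split between transcripts.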

How the data were processed

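RNA was measured in 6 samples of HN12 cells. The deposited raw table holds estimated counts per RefSeq transcript, made by the authors with a counter not named for it. The deposited processed matrix names no unit; it was taken as FPKM, computed by the authors, because FPKM per count followed the inverse library total within 0.568% over 1652 genes with 1 transcript. Tools listed, without roles, in the submitters' processing notes are STAR 2.5, HTSeq, CASAVA, DESeq2 and edgeR 3.16.5, and the build is hg38. Transcripts with a date in place of a number (27, none of a member) were left out. Counts were summed per gene and rounded; 53 genes without a symbol took 0.0163% of them. Genes passing filterByExpr (minimum count 10, total 15) were scaled by TMM and tested two-sided with edgeR 4.0.16 (quasi-likelihood, group only, R 4.3.3), with Benjamini-Hochberg adjustment over 12671 genes and a threshold of 0.05. The standard error was the log2 fold change over the square root of F, and CPM use TMM-scaled library sizes.

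The GC and length adjustment used offsets from natural splines (5 degrees of freedom) in each library, on the longest GENCODE 29 coding transcript. DESeq2 1.42.0, limma 3.58.1, other scalings, filters, a replicate block, omitted libraries and log2(FPKM + 1) were alternatives. The scripts were tested on simulated data. No library pair matched within counting noise (chi-square per degree of freedom at least 3.88). The lowest value was that of Control replicates 1 and 3, and the next was 34.6 for Control replicates 1 and 2. Why Control replicates 1 and 3 were this close was not tested. Precision rests on 3 libraries per group. Members and lists were chosen with earlier results of these data known. Named genes were called members, the 4 highest and 4 lowest fold changes of each subunit, the 4 highest and 3 lowest by FPKM, genes chosen for their biology and called genes of other lists. MRPL13, MRPL32, MRPL47, MRPS34 and the uncalled genes of other lists were chosen after their values were seen. Protein sequences and mitochondrially encoded RNAs were not used here.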

Additional observations from a re-analysis of the deposited data

How the results depend on the processing

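Under 26 alternatives and a stricter adjusted p of 0.01, 0 of 78 genes were called with 1 exception. Without CPI-613 replicate 1 and with the GC and length adjustment, 2 were called, MRPS10 (log2 fold change 0.89, SE 0.17, edgeR adjusted p = 0.0130) and MRPS36 (1.16, SE 0.31, edgeR adjusted p = 0.0373), where 20.8% of all genes were called; in that fit MRPL50 had 0.22 (SE 0.20) in place of -0.43 and MRPL47 0.34 (SE 0.21) in place of -0.34. MRPL47 also had 0.31 (SE 0.28) without Control replicate 2 with the adjustment. The range over omitted libraries was therefore 0 to 2 genes called. MRPS10 and MRPS36 both belong to the low GC class, which had an adjusted median of 0.19 over all libraries. The share of all genes called ran from 0% (without Control replicate 1 or 3) to 20.8% over the 26 alternatives. In the fits with the lowest shares, 0 of 78 is no result about these genes. Over omitted libraries, the median of the 78 genes, 0.09, ran from -0.11 (without CPI-613 replicate 3) to 0.27 (without CPI-613 replicate 1). It was -0.13 with library size only and -0.15 on log2(FPKM + 1), where the medians of all genes were -0.17 and -0.16. The number of estimates above 0, 55 of 78, was 21 with library size only and 19, 19 and 19 on log2(FPKM + 1), log2(FPKM + 0.1) and log2(FPKM + 1) with no filter; it ran from 22 (without CPI-613 replicate 3; 26 with the adjustment) to 63 without CPI-613 replicate 1. The difference between the MRPL and MRPS medians, 0.07, ran from -0.058 without CPI-613 replicate 3 to 0.11 without CPI-613 replicate 1. The cause of these moves was not tested. For the 39 named MRPL and MRPS genes, 1009 of 1014 values were scored as unchanged in call and direction. A changed direction was scored only if the main and the alternative estimate both exceeded their SEs. A gene with a main estimate below its SE could therefore not be scored as reversed. By sign alone, 239 of the 1014 values differed from the main estimate, at sizes up to 0.91 on the log2 scale. With a replicate block, 0 of 78 genes were called, against 1.51% of all genes (0 of 78 against 7.02% with the adjustment as well). The median was 0.05 and 46 estimates were above 0 (0.06 and 44 with the adjustment as well). The MYC call was lost with the block (edgeR adjusted p = 0.0725) at a log2 fold change of 1.25. Same-numbered libraries had correlations of deviations of 0.46, -0.10 and -0.61. The libraries also differed by the GC content of the genes, so these values cannot show whether same-numbered libraries were handled together. The 403 calls over all genes became 0, 219 and 0 when Control replicate 1, 2 or 3 was left out, and 905, 7 and 657 when CPI-613 replicate 1, 2 or 3 was. With 3 libraries per group, changes of any size within the printed intervals remain compatible with these data.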
